A study of Homo sapiens with 6 samples.

Results

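The 45 genes described here act in the G2 phase of the cell cycle and in mitosis, and most of them build or control the mitotic spindle. They were taken as a named list, which was chosen with earlier results of these data known. Their levels were compared between paclitaxel-resistant breast cancer stem cells (BCSC) and the remaining cells of the same line (non-BCSC). All 45 were found among the 61014 annotated genes of the count table, and all 45 were among the 20442 genes counted deeply enough to be tested. The summed level of the 45 genes overlapped between the groups. Of the 45, 10 were called higher in BCSC (8.85% of all genes tested) and 0 were called lower (11.3%). These 10 included the Aurora kinases and all 4 members of the chromosomal passenger complex. Of the 10, only AURKA, AURKB and CDCA8 were also called after a correction for GC content and length. After removal of a background signal 5 of the 45 genes were called higher, where 10.9% of all genes then tested were.

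The cells were MDA-MB-231, which derive from a human triple-negative breast tumor, made resistant to paclitaxel (PTX), a drug that binds and stabilizes microtubules. Cells with high aldehyde dehydrogenase activity (ALDH+, the BCSC) were separated from cells without it (ALDH-, the non-BCSC) by flow cytometry, with dead cells gated out. The design has limits: all 6 libraries come from PTX-resistant cells of a single line, no parental or untreated cells are in the comparison, and the groups are a gate on enzyme activity. Each group had n = 3 libraries, and the labels do not say whether these came from separate cultures or sorts, so the p-values measure the spread between these libraries only.

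A cell that enters mitosis first activates CDK1 through cyclins A and B and the CDC25 phosphatases. Kinesin motors and their partners then build a bipolar spindle, the spindle checkpoint holds the cell until every kinetochore is attached, and the anaphase promoting complex releases the sister chromatids. Paclitaxel acts at this step, because a stabilized spindle keeps the checkpoint active. Many of these genes are transcribed late in the cycle by the MuvB complex with B-MYB and FOXM1, which is recruited to a promoter element called the CHR (cell cycle genes homology region) that often lies near CCAAT boxes bound by NF-Y. In bulk RNA, more cells in G2 or mitosis and more RNA per such cell cannot be told apart.

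The promoter element was looked for in RefSeq promoter windows on GRCh38.p14, each of which runs from 250 bases before to 50 bases after a start site. Of the 45 genes, 39 had a window, giving 49 windows in all. The letters TTTGAA or TTCGAA of the CHR stood on either strand in 71.4% of these 49 windows and in 16.4% of all 35116 windows. The letters CCAAT stood on either strand in 73.5% of the members' windows and in 34.6% of all windows, and both motifs stood in 57.1% and 6.38%. At least 2 CCAAT boxes were found in 42.9% of the members' windows, against 10.8% of all windows. A match of letters is a description of the sequence and was not tested for binding.

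Promoter stretches of 8 members are shown so that genes which were higher in BCSC, genes which were lower and a gene which did not pass the test can be compared by sequence. CDCA8, INCENP, ESPL1 and CDC20 were called higher, CCNB2 did not pass the test, and HMMR, NUSAP1 and PRC1 were past the adjusted p and lower, as described further on. Each run has 150 bases, 5′ to 3′ on the gene's strand, with the CHR letters and the CCAAT box (written ATTGG where it lies on the other strand) in capitals.
CDCA8, chr1:37692396-37692545, plus strand: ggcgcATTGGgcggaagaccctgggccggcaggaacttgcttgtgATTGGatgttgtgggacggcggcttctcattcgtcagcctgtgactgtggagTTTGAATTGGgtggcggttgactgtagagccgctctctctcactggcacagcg
INCENP, chr11:62123891-62124040, plus strand: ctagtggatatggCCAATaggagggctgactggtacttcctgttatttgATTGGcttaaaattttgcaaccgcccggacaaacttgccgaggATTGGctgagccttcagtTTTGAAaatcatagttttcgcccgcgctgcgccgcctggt
ESPL1, chr12:53268179-53268328, plus strand: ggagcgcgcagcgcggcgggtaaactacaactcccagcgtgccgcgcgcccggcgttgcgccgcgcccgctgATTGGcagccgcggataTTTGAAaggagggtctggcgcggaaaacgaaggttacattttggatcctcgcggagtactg
CDC20, chr1:43358861-43359010, plus strand: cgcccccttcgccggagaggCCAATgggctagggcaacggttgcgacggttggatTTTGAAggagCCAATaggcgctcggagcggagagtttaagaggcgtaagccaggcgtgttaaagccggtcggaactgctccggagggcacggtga
CCNB2, chr15:59105026-59105175, plus strand: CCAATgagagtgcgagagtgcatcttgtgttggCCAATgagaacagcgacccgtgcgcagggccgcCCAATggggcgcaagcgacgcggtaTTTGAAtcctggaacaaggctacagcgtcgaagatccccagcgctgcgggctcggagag
HMMR, chr5:163460512-163460661, plus strand: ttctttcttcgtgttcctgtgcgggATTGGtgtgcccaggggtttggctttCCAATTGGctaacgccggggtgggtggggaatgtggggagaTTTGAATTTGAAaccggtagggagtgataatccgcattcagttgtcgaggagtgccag
NUSAP1, chr15:41332761-41332910, plus strand: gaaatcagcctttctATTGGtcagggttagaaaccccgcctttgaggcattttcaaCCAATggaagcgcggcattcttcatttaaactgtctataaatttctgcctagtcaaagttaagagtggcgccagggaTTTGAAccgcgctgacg
PRC1, chr15:90994506-90994655, minus strand: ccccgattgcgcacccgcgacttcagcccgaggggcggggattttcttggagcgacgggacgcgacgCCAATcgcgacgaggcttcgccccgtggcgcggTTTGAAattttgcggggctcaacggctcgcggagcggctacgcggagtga
Within the printed stretches the CHR lay between 65 bases before and 14 bases after the start site, and HMMR held 2 copies, at -28 and -22. The window of CDC20 also held 2 CHR matches, of which only that at -65 is in the printed stretch. Each of the 8 stretches had at least 1 CCAAT box upstream of its CHR, for example at -120, -87 and -54 in CCNB2 and at -53 in PRC1. In CDCA8 the CHR at -23 overlaps a CCAAT box at -18, and in HMMR the boxes at -69 and -66 overlap each other. Both motifs thus stood in front of genes that were higher and of genes that were lower as tested. The lower direction of these 3 genes did not hold in every treatment of the counts: HMMR and NUSAP1 had log2 fold changes above 0 after a correction for GC content and length, and PRC1 summed with a readthrough gene did not differ past the adjusted p. Among genes with a window, the CHR letters were found in 6 of 7 genes called higher, in 4 of 4 genes past the adjusted p and lower, in 4 of 6 genes past it and higher under the fold minimum, and in 18 of 22 genes that did not pass it.

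**Figure D1:**
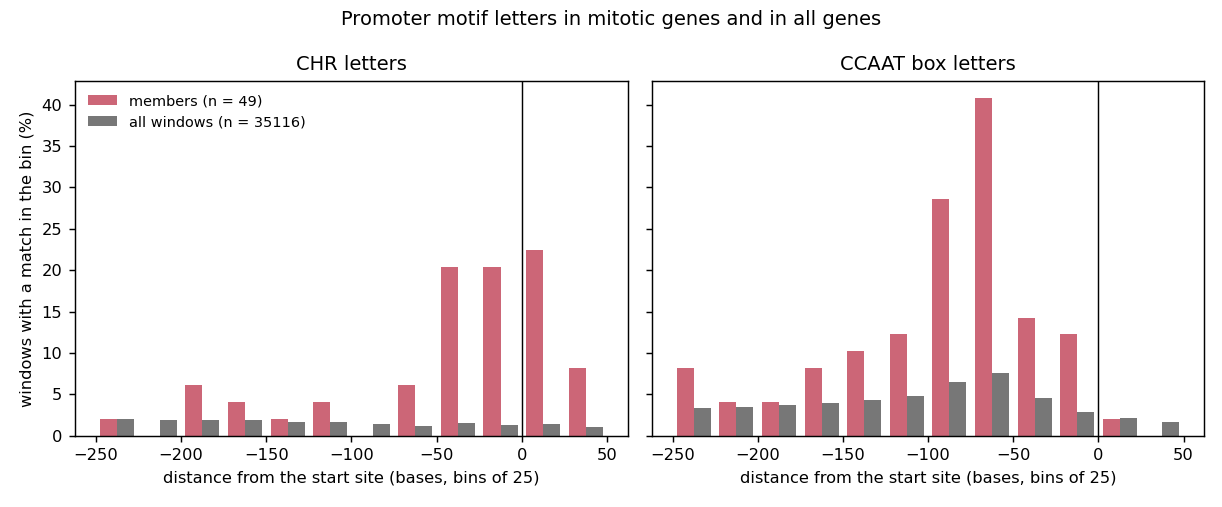
Share of promoter windows (%) with the CHR letters or the CCAAT letters in each bin of 25 bases, by distance in bases from the start site, for the 49 windows of members and all 35116 windows. The members' CHR matches gather from 50 bases before the start site onward, with 22.4% of windows in the bin just after it, and their CCAAT matches peak at 40.8% between 75 and 50 bases before it.

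The libraries differed in more than the sort. Depth was 21215352, 15925943 and 16758485 counts for the BCSC libraries, all above the 12263667, 11387018 and 9898588 counts of non-BCSC. The defining markers of the line were present in both groups: 8 genes known to be high in MDA-MB-231, such as VIM and CD44, summed to 7475 to 8828 CPM (counts scaled by library size) in BCSC and to 4741 to 6369 CPM in non-BCSC. Luminal and epithelial genes expected to be low in the line summed to 81.0 to 93.2 CPM against 103 to 141 CPM. Of the 5 of them that could be tested, 1 had a log2 fold change above 0 (0.57) and 4 below. A set of 6 blood and endothelial markers summed to 19.3 to 34.7 CPM against 70.0 to 102 CPM, with none of these 6 at 0 in every library. Of these, PTPRC (CD45) and CDH5 were called lower in BCSC, at log2 fold changes of -5.02 and -1.43. Olfactory receptor genes, which such cells are not known to use, summed to 38.6, 55.0 and 147 CPM in BCSC and to 526, 684 and 1120.5 CPM in non-BCSC. This low-level signal and the depth move with the group, and their part in the results was not tested beyond the corrections given below.

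Summed over the 45 genes, the level was 13008, 14223 and 13238 CPM in BCSC and 13137, 13161 and 12094 CPM in non-BCSC. The groups overlapped, and the mean of BCSC was 1.05 times that of non-BCSC. As a share of all counts the 45 genes took 1.24% to 1.37% in BCSC and 1.27% to 1.31% in non-BCSC. Per kb of transcript, the order of levels was led in both groups by NUSAP1, a microtubule bundling protein, and TOP2A, the topoisomerase that untangles sister chromatids, followed by CCNB1 (cyclin B1), TPX2 and MKI67 (the proliferation antigen Ki-67) in the same places. ESPL1 stood last in both groups, at 6.95 CPM per kb in BCSC and 1.91 CPM per kb in non-BCSC.

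To ask which of the genes differed between the sorted cells, each gene's transcript counts were summed and tested with edgeR's quasi-likelihood test, with Benjamini-Hochberg adjustment over the 20442 genes. Calls needed an adjusted p under 0.05 together with a change of more than 1 in size on the log2 scale, always given as BCSC over non-BCSC. By this rule 10 of the 45 genes were called higher, where 8.85% of all genes tested were, and 0 were called lower, where 11.3% of all genes were. Without the fold minimum, 17 of the 45 genes were past the adjusted p and higher (15.3% of all genes), 4 were past it and lower (14.6%), and 24 were not past it. The 3 BCSC libraries all lay above the 3 non-BCSC libraries for 22 of the 45 genes (24.2% of all genes) and all below for 4 (27.9%). The median log2 fold change was 0.20 over the 45 genes and -0.05 over all genes tested, and 30 of the 45 were above 0 (48.1% of all genes).

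**Figure D2:**
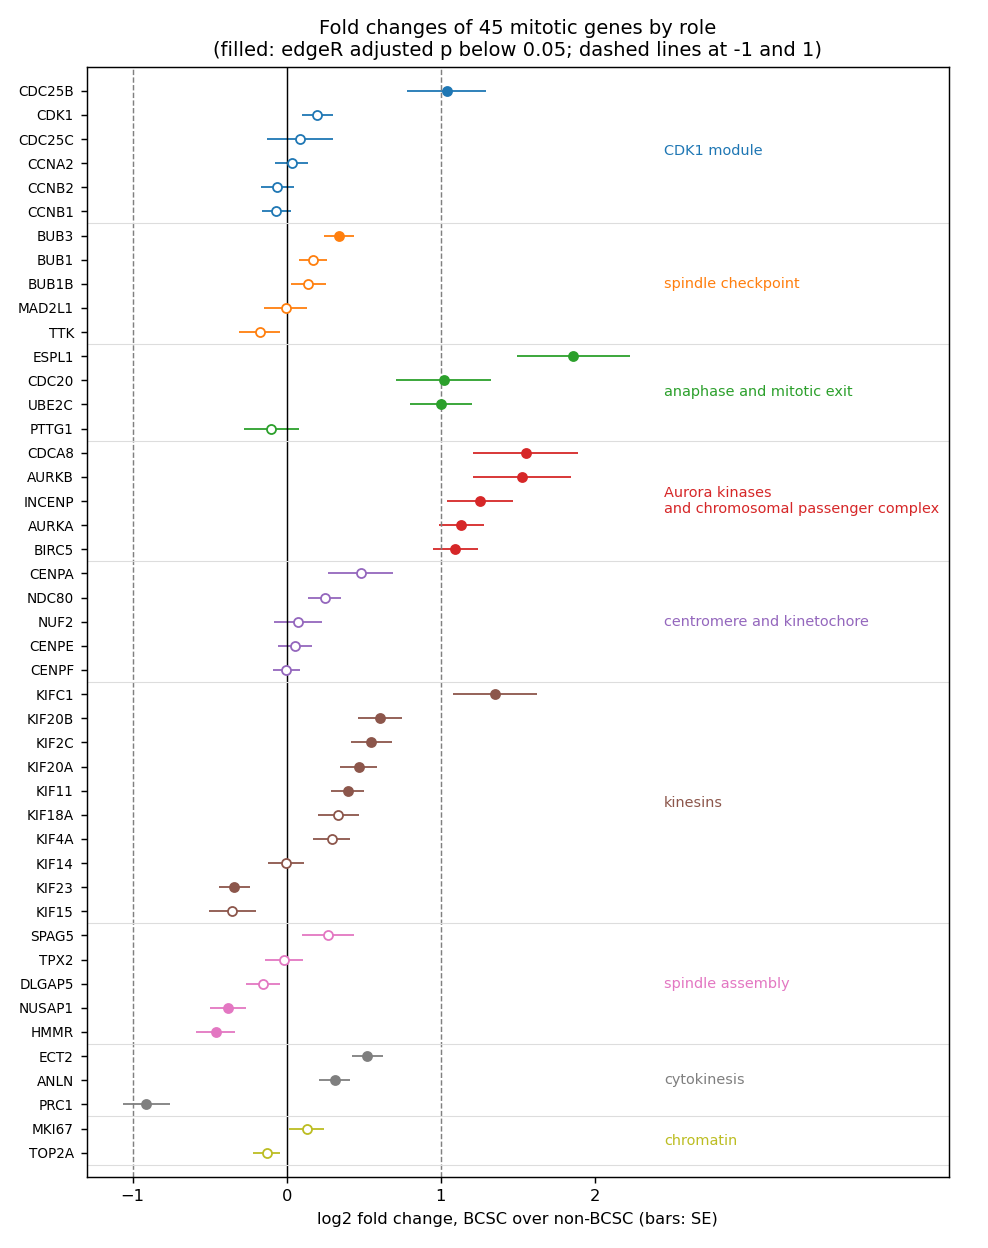
Log2 fold change of BCSC over non-BCSC for the 45 genes, grouped by role, with bars of 1 standard error and filled points where the edgeR adjusted p was under 0.05. The Aurora and passenger complex genes lie together between 1.10 and 1.55, while the CDK1 module, the checkpoint and the kinetochore genes gather near 0.

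The 5 genes of the Aurora and chromosomal passenger group all rose in BCSC, and they were the only role group in which every member was called. The role groups were chosen with earlier results of these data known, so this is a description only. AURKA, the kinase that matures centrosomes and builds the spindle poles, measured 91.7, 77.7 and 73.4 CPM in BCSC and 35.7, 37.2 and 37.8 CPM in non-BCSC. The groups stood far apart, and the non-BCSC libraries differed by little among themselves. The log2 fold change was 1.13 (edgeR adjusted p = 0.00102, SE 0.14).

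The chromosomal passenger complex corrects wrong attachments of microtubules to kinetochores and later helps to close the cleavage furrow. Its kinase AURKB measured 45.7, 35.5 and 19.1 CPM in BCSC and 12.5, 10.3 and 11.9 CPM in non-BCSC. BCSC replicate 3 lay nearest to the non-BCSC libraries but still above them, and the log2 fold change was 1.53 (edgeR adjusted p = 0.00816, SE 0.32). CDCA8, which encodes the scaffold subunit borealin, measured 58.9, 43.3 and 37.6 CPM against 23.3, 15.8 and 8.54 CPM. Its groups were separate although the non-BCSC values spread widely, with a log2 fold change of 1.55 (edgeR adjusted p = 0.0102, SE 0.34).

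INCENP, the scaffold that binds and activates AURKB, measured 101, 66.6 and 58.8 CPM in BCSC and 32.8, 27.9 and 34.0 CPM in non-BCSC. BIRC5, which encodes survivin, the subunit that brings the complex to the centromere, measured 111, 89.7 and 90.5 CPM against 44.4, 49.6 and 42.4 CPM. Neither gene had overlapping groups. The log2 fold change was 1.25 for INCENP (edgeR adjusted p = 0.00360, SE 0.21) and 1.10 for BIRC5 (edgeR adjusted p = 0.00115, SE 0.14). AURKA, AURKB and CDCA8 were called in each of the 6 fits that left out 1 library, whereas BIRC5 and INCENP were called in 5 of 6 and fell under the fold minimum without BCSC replicate 1. After the correction for GC content and length described below, INCENP stood at 0.02 and was no longer past the adjusted p.

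Of the 4 genes of anaphase and mitotic exit, 3 rose in BCSC. ESPL1, which encodes separase, the protease that cuts cohesin, had the largest log2 fold change of the 45 genes. It measured 58.4, 36.5 and 32.6 CPM in BCSC and 13.9, 5.92 and 15.2 CPM in non-BCSC. Every BCSC library was above every non-BCSC library, at a log2 fold change of 1.86 (edgeR adjusted p = 0.00662, SE 0.37). The size of this change depends on which transcripts are summed: its protein-coding transcripts counted 997, 65 and 115 in BCSC, against 0, 0 and 0 in non-BCSC, where 0% of its counts lay in them. With these transcripts alone the mean of the 3 BCSC libraries was at least 75.4-fold above a floor of 3 counts per library. BCSC replicate 1, with its 997 counts, carried most of that mean. ESPL1 was past the adjusted p in this fit (edgeR adjusted p = 0.0419). In non-BCSC its count per kb was 2.03 times that of the olfactory receptor genes, the closest of the 45 genes to that low-level signal, and after the GC and length correction its log2 fold change of 0.75 was not past the adjusted p (edgeR adjusted p = 0.0812).

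CDC20, the activator of the anaphase promoting complex that the checkpoint holds back, measured 92.5, 60.9 and 46.8 CPM in BCSC and 44.6, 21.03 and 33.2 CPM in non-BCSC. BCSC replicate 3 and non-BCSC replicate 1 nearly met, and the log2 fold change of 1.02 (edgeR adjusted p = 0.0329, SE 0.31) was not past the adjusted p without BCSC replicate 1, BCSC replicate 2, non-BCSC replicate 2 or non-BCSC replicate 3. UBE2C, the ubiquitin-conjugating enzyme of the same complex, measured 90.5, 73.4 and 66.6 CPM against 48.4, 30.3 and 36.3 CPM. It was past the adjusted p in every fit that left out 1 library, with a log2 fold change of 1.001 (edgeR adjusted p = 0.00714, SE 0.20) that fell under the fold minimum without BCSC replicate 1, non-BCSC replicate 2 or non-BCSC replicate 3.

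PTTG1 encodes securin, the inhibitor that holds separase until anaphase. It measured 105, 104 and 126 CPM in BCSC and 147, 124 and 88.2 CPM in non-BCSC. Its groups overlapped, and its log2 fold change of -0.10 (edgeR adjusted p = 0.699, SE 0.18) did not pass the test. The protease and its inhibitor therefore had unlike values in the same libraries, and the difference between these 2 fold changes was not tested.

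In the CDK1 module, which holds the kinase, its cyclins and its activating phosphatases, 1 of 6 genes was called. CDC25B, the phosphatase that starts CDK1 activation at the centrosome, measured 169, 133 and 115 CPM in BCSC and 99.4, 51.2 and 52.2 CPM in non-BCSC. Its groups were separate at a log2 fold change of 1.04 (edgeR adjusted p = 0.0156, SE 0.26), and the call was lost without BCSC replicate 1, non-BCSC replicate 2 or non-BCSC replicate 3, and after the GC and length correction. The sister phosphatase CDC25C had a log2 fold change of 0.09 (edgeR adjusted p = 0.786, SE 0.21).

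CCNB1 measured 392, 380.1 and 375 CPM in BCSC and 439, 384 and 378 CPM in non-BCSC. CCNA2, cyclin A2, measured 278, 344 and 325 CPM against 321, 316 and 288 CPM. CDK1 itself measured 213, 236 and 229.8 CPM against 199, 209 and 183 CPM. CDK1 was higher in every BCSC library by a small margin that did not pass the test (edgeR adjusted p = 0.160), at a log2 fold change of 0.20 with an SE of 0.10, and the cyclins overlapped between groups. Their log2 fold changes were -0.07 for CCNB1 (SE 0.10), -0.06 for CCNB2 (SE 0.11) and 0.03 for CCNA2 (SE 0.11).

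The spindle checkpoint delays anaphase while kinetochores are unattached, and 1 of its 5 genes, BUB3, was past the adjusted p. BUB3, which docks the checkpoint on kinetochores, measured 201, 218 and 201 CPM in BCSC and 173, 157 and 160.4 CPM in non-BCSC. Its groups were separate by a small margin, with a log2 fold change of 0.34 (edgeR adjusted p = 0.0276, SE 0.10). It lost the adjusted p without BCSC replicate 1, BCSC replicate 2, non-BCSC replicate 2 or non-BCSC replicate 3. BUB1, a checkpoint kinase, measured 251, 259 and 237 CPM against 226, 226 and 212 CPM, which did not pass the test at a log2 fold change of 0.17 (edgeR adjusted p = 0.192, SE 0.09). MAD2L1, the checkpoint protein that captures CDC20, measured 132, 159 and 178 CPM against 141, 155 and 176 CPM. Its groups overlapped entirely. BUB1B and the kinase TTK had log2 fold changes of 0.14 and -0.18 and did not pass the test either.

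None of the 5 centromere and kinetochore genes passed the adjusted p. CENPF, a large kinetochore protein, measured 1102, 1229 and 1188 CPM in BCSC and 1211, 1191 and 1122 CPM in non-BCSC. CENPE, the kinesin that moves chromosomes to the spindle equator, measured 410.2, 494 and 529.8 CPM against 448, 467 and 466 CPM. Both overlapped between groups. The microtubule-binding subunits NDC80 and NUF2 had log2 fold changes of 0.25 (SE 0.11) and 0.08 (SE 0.16), and CENPA, the histone variant of centromeres, of 0.48 (SE 0.21). The BCSC libraries lay above the non-BCSC libraries for NDC80 and CENPA, at an edgeR adjusted p of 0.107 for both.

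Among the 10 kinesins, 5 were past the adjusted p and higher and 1 was past it and lower. KIFC1, a minus-end-directed motor that gathers extra centrosomes into a pair of poles, was the only kinesin called. It measured 54.9, 41.2 and 28.1 CPM in BCSC and 17.8, 17.8 and 13.0 CPM in non-BCSC. Its groups were separate, and its log2 fold change of 1.35 (edgeR adjusted p = 0.00717, SE 0.27) was called in each fit that left out 1 library. It was 0.52 and not past the adjusted p after the GC and length correction (edgeR adjusted p = 0.0723).

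KIF11, the motor known as Eg5 that pushes spindle poles apart, measured 347, 394 and 428 CPM in BCSC and 273, 306 and 309 CPM in non-BCSC. KIF20A, a motor of the central spindle, measured 362, 375 and 326 CPM against 292, 256 and 221 CPM. KIF11 rose by 0.40 on the log2 scale (edgeR adjusted p = 0.0229, SE 0.11) and KIF20A by 0.47 (edgeR adjusted p = 0.0187, SE 0.12), and both had separate groups. The other 2 kinesins that rose were KIF20B, with a log2 fold change of 0.61 (edgeR adjusted p = 0.0133, SE 0.14), and KIF2C, a microtubule depolymerase, with 0.55 (edgeR adjusted p = 0.0155, SE 0.13). Of these 4, only KIF20B kept its adjusted p in every fit that left out 1 library. KIF11 lost it without BCSC replicate 2 or 3, KIF20A without BCSC replicate 1 or 2 or non-BCSC replicate 2 or 3, and KIF2C without BCSC replicate 1 or non-BCSC replicate 2 or 3.

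KIF23, the motor subunit of centralspindlin that organizes the midzone, measured 327, 386 and 361 CPM in BCSC and 432, 483 and 446 CPM in non-BCSC. All BCSC libraries lay below all non-BCSC libraries, and the log2 fold change was -0.34 (edgeR adjusted p = 0.0296, SE 0.10). The 4 kinesins that did not pass the test were KIF18A (0.33), KIF4A (0.29), KIF14 (-0.004) and KIF15 (-0.35), by their log2 fold changes.

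The 5 spindle assembly genes had no member higher past the adjusted p and 2 that were lower. NUSAP1 measured 508, 685 and 614 CPM in BCSC and 815, 793 and 743 CPM in non-BCSC. HMMR, a spindle pole protein that works with TPX2, measured 242, 328 and 331 CPM against 394, 415 and 432 CPM. In both genes every BCSC library was below every non-BCSC library. The log2 fold change was -0.38 for NUSAP1 (edgeR adjusted p = 0.0363, SE 0.12) and -0.46 for HMMR (edgeR adjusted p = 0.0248, SE 0.13). Both genes, like KIF23, kept the adjusted p in only 1 of the 6 fits that left out a library, the fit without BCSC replicate 3.

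TPX2, which activates AURKA on spindle microtubules, measured 578, 666 and 553 CPM in BCSC and 684, 617 and 518 CPM in non-BCSC. The groups overlapped at a log2 fold change of -0.02 (edgeR adjusted p = 0.928, SE 0.12), so AURKA was called higher and the level of its activator did not pass the test. DLGAP5 and SPAG5 had log2 fold changes of -0.15 and 0.27 and did not pass the test.

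The 3 cytokinesis genes were all past the adjusted p, in unlike directions. ANLN (anillin), which links actin and septins at the cleavage furrow, measured 666, 693 and 749 CPM in BCSC and 567, 616 and 517 CPM in non-BCSC. ECT2, the exchange factor that activates RhoA at the furrow, measured 339, 387 and 397 CPM against 247, 263 and 272 CPM. Both had separate groups, with log2 fold changes of 0.31 for ANLN (edgeR adjusted p = 0.0413, SE 0.10) and 0.52 for ECT2 (edgeR adjusted p = 0.00593, SE 0.10). ECT2 kept its adjusted p in every fit that left out 1 library, and ANLN only in the fit without non-BCSC replicate 2.

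PRC1, the protein that bundles antiparallel microtubules of the midzone, measured 102, 122 and 129.5 CPM in BCSC and 229, 259.7 and 176 CPM in non-BCSC. Every BCSC library lay below every non-BCSC library, and the log2 fold change of -0.91 (edgeR adjusted p = 0.00362, SE 0.16) was the lowest of the 45 genes. PRC1 shares 3181 exon bases, 57.6% of its own, with a readthrough gene on the same strand (ENSG00000284946, chr15:91509420-91565796 on GRCh37). That gene counted 204, 177 and 163 CPM in BCSC and 76.8, 42.3 and 121 CPM in non-BCSC, a log2 fold change of 1.18 (edgeR adjusted p = 0.0174, SE 0.30). When its counts were added to PRC1, a step chosen after these values were seen, the sum was 306, 299 and 293 CPM in BCSC and 306, 302 and 297 CPM in non-BCSC. The log2 fold change was then -0.01 (edgeR adjusted p = 0.935, SE 0.09). How reads of the shared exons were divided is not given, and with the readthrough gene added 3 of the 45 genes were past the adjusted p and lower.

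The proliferation markers MKI67 and TOP2A, the best counted genes of the 45 beside CENPF, did not pass the test. MKI67 measured 2087, 2274 and 1767 CPM in BCSC and 2048, 1831 and 1725 CPM in non-BCSC. TOP2A measured 1452, 1566 and 1448 CPM against 1609, 1749 and 1535 CPM. The groups overlapped for both genes. The log2 fold change was 0.13 for MKI67 (edgeR adjusted p = 0.412, SE 0.11) and -0.13 for TOP2A (edgeR adjusted p = 0.286, SE 0.09).

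**Figure D3:**
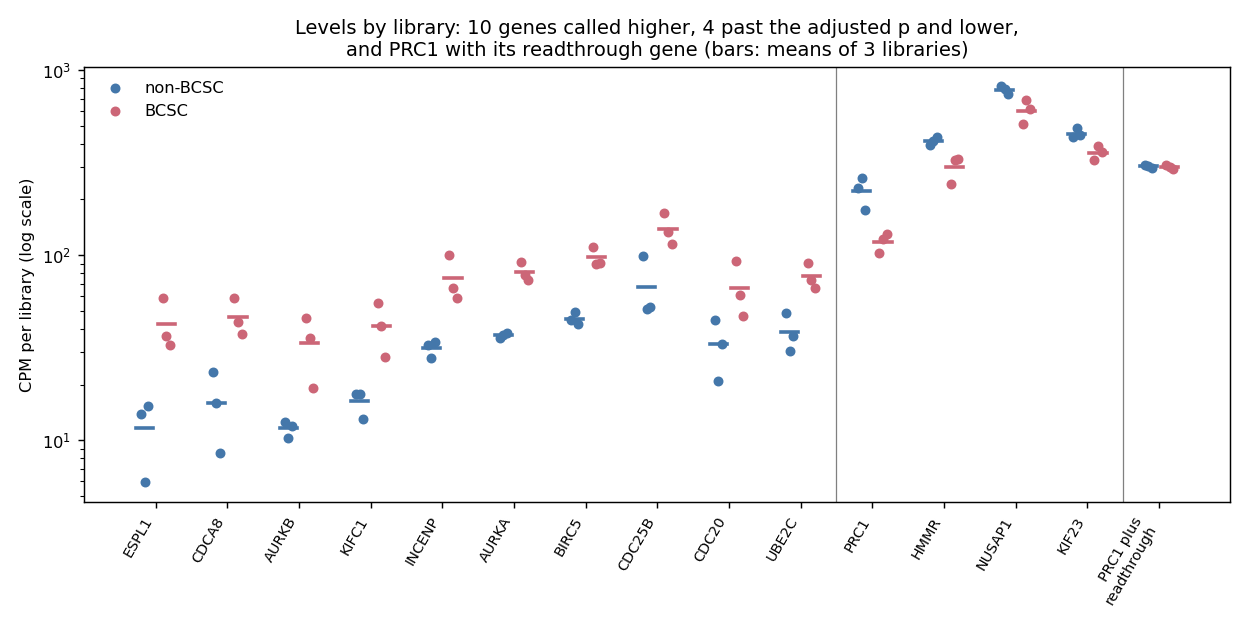
CPM in each library (points, log axis) and the mean of 3 libraries (bars) for the 10 genes called higher, the 4 genes past the adjusted p and lower, and PRC1 summed with its readthrough gene. The called genes sit between 5.92 and 169 CPM with separate groups, the lower genes sit between 102 and 815 CPM, and the PRC1 sum stands at 293 to 306 CPM in all 6 libraries.

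The 10 called genes shared 2 features that the list did not use. BCSC replicate 1, the deepest library, was the highest of the 3 BCSC libraries for all 10 of them. The share of all genes with that order is not given here. Without this library 5 of the 45 genes were called (AURKA, AURKB, CDCA8, ESPL1 and KIFC1). Calls higher among all genes fell too, from 1810 of 20442 genes to 959 of 23650. The transcripts of the 10 genes were also rich in G and C. The GC content of the counted transcripts was 45.8% for AURKA and between 51.0% and 59.9% for the other 9, where the median was 42.2% over the 45 genes and 44.8% over all genes tested. Across genes, the rank correlation of log2 fold change with GC content was 0.52 over the 45 genes and 0.54 over the 20442 genes, given as a description, since genes of the same libraries are not independent.

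When each library was corrected for GC content and transcript length, 9 of the 45 genes were called higher (7.35% of all genes) and 0 lower (9.54%). In that fit 28 were past the adjusted p and higher (19.5% of all genes) and 1 lower (11.6%). Only 3 genes were called in both fits. AURKA (log2 fold change 1.48, edgeR adjusted p = 0.000308), CDCA8 (1.30, 0.00961) and AURKB (1.02, 0.0113) were these 3, and UBE2C (0.95) and BIRC5 (0.82) stayed past the adjusted p. ESPL1 (0.75), KIFC1 (0.52), CDC20 (0.30), CDC25B (0.05) and INCENP (0.02) no longer passed it.

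After the correction the rank correlation of log2 fold change with GC content was 0.02 over all genes but -0.43 over the 45 genes, so among these the slope turned rather than vanished. The 6 genes called only after the correction were all poor in GC, from 34.1% to 39.6%. They were KIF20B (log2 fold change 1.54), CDK1 (1.37), KIF18A (1.31), ECT2 (1.29), NDC80 (1.09) and NUF2 (1.05). The median over the 45 genes rose from 0.20 to 0.58 while that of all genes moved from -0.05 to 0.06. In all, 16 of the 45 genes changed sign, 14 of them to higher and 2 (MKI67 and SPAG5) to lower. HMMR turned from lower to higher and passed the adjusted p in that direction (0.48, edgeR adjusted p = 0.0306), NUSAP1 (0.27) and KIF23 (0.22) turned without passing it, and PRC1 remained lower (-0.93, edgeR adjusted p = 0.00482). GC content moves with the group in these libraries, and whether the slope lies in the cells or in the libraries was not tested.

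**Figure D4:**
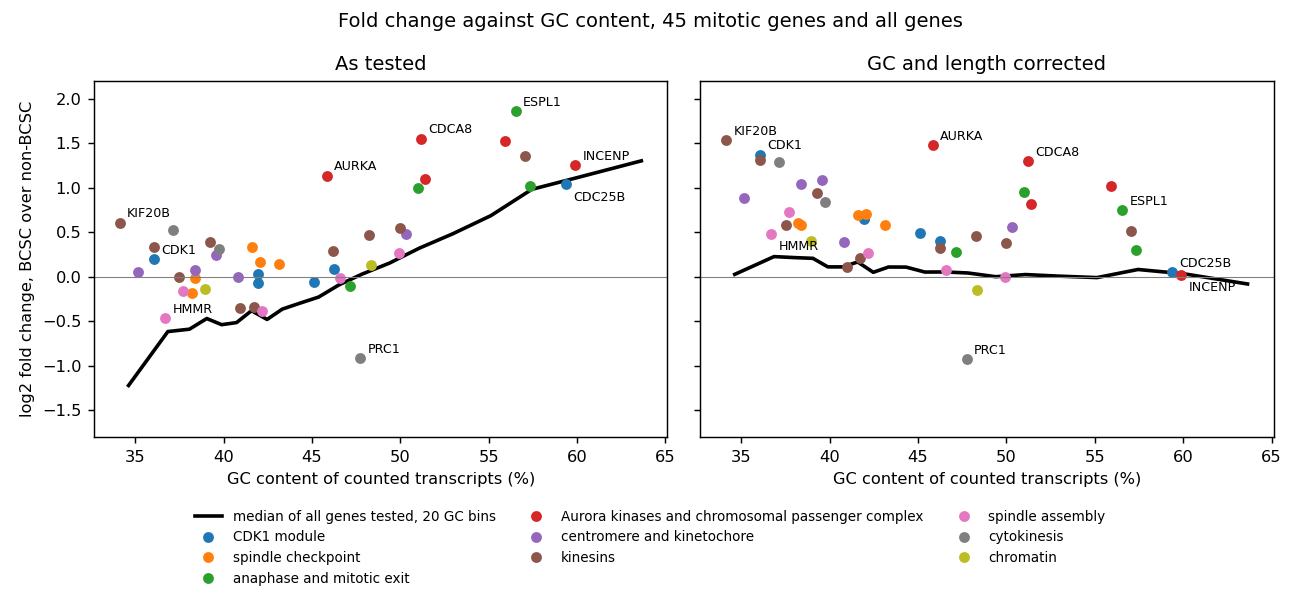
Log2 fold change of BCSC over non-BCSC against the GC content (%) of the counted transcripts, as tested and after a correction for GC content and length, with the 45 genes colored by role and the median of all genes in 20 GC bins as a line. As tested the line climbs from -1.22 to 1.30 and AURKA, CDCA8 and ESPL1 stand above it, whereas INCENP and CDC25B lie close to it. After the correction the line is close to flat, and most of the 45 genes are above it.

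A background taken from the olfactory receptor genes, as a count per kb in each library, was also removed from every gene. Then 5 of the 45 genes were called higher (10.9% of all 15956 genes then tested) and 1 lower (5.4%), which was PRC1. The 5 were ESPL1 (2.52), CDCA8 (1.48), AURKB (1.34), KIFC1 (1.24) and INCENP (1.10), by log2 fold change. AURKA (0.90), BIRC5 (0.85) and UBE2C (0.72) stayed past the adjusted p, while CDC25B (0.79) and CDC20 (0.77) did not pass it. The median was -0.10 over the 45 genes and 0.13 over all genes in this fit, and 8 genes were past the adjusted p and higher (14.9% of all genes). A further 11 were past it and lower (12.9%), among them HMMR (-0.76), NUSAP1 (-0.68), KIF23 (-0.64), TOP2A (-0.44) and CCNB1 (-0.37). AURKA, AURKB, BIRC5, CDCA8 and UBE2C were thus higher past the adjusted p in all 3 of these treatments of the counts, and the direction of HMMR, NUSAP1 and KIF23 depended on the treatment. When only protein-coding transcripts were summed, AURKB was no longer past it (log2 fold change 1.12, edgeR adjusted p = 0.0901), nor were CDC20 (0.87) and CDC25B (0.85), while the other 7 called genes stayed past it.

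**Figure D5:**
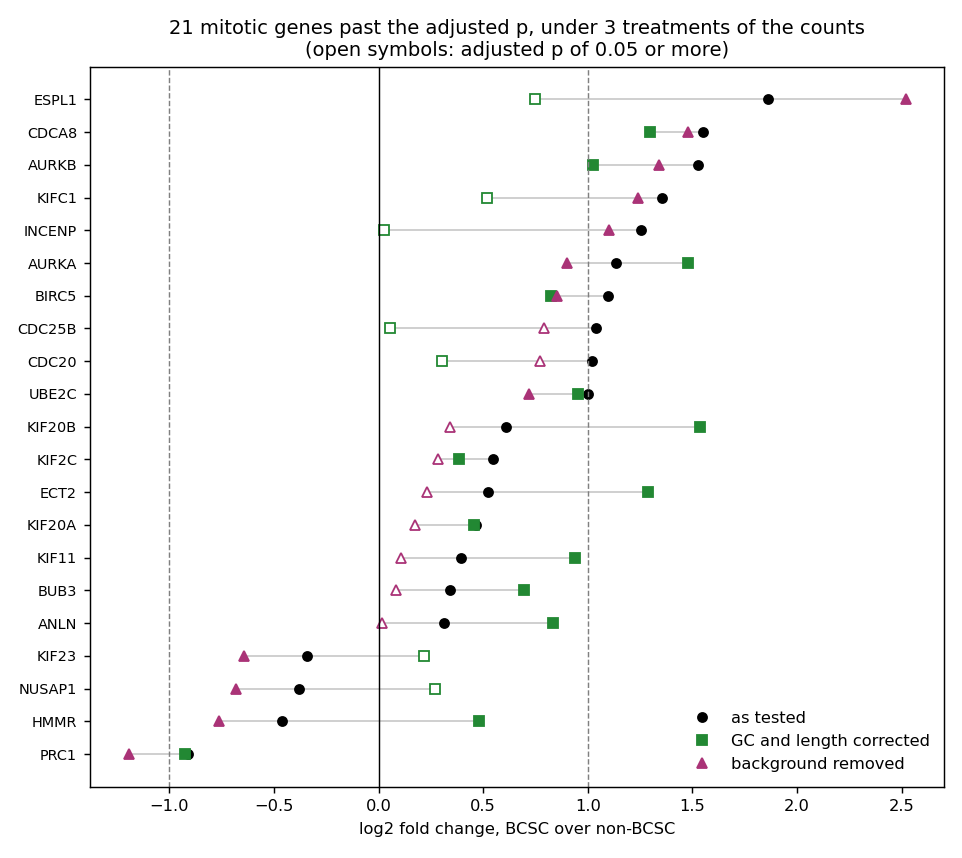
Log2 fold change of BCSC over non-BCSC for the 21 genes past the adjusted p, as tested, after the GC and length correction, and after background removal, with open symbols where the edgeR adjusted p was 0.05 or more. AURKA, AURKB, BIRC5, CDCA8 and UBE2C stay filled and to the right of 0 in all 3, and HMMR, NUSAP1 and KIF23 change sides between treatments.

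The table is a list of transcripts, and the 45 genes have 357 of them, of which 310 had a count and 170 could be tested. At this level 1 transcript was called higher (0.593% of the 46176 transcripts tested) and 1 lower (0.191%). With an unadjusted p under 0.05 and the same fold minimum, 17 were higher (7.84% of all) and 3 lower (7.99%). CDC25B-202 counted 1168, 580 and 1039 in BCSC, against 0, 0 and 0 in non-BCSC, which is at least 209-fold higher against a floor of 3 counts per library (edgeR adjusted p = 0.0429). PRC1-201, the leading isoform of PRC1, counted 689, 770 and 531 against 2538, 2808 and 1504, a log2 fold change of -2.30 (edgeR adjusted p = 0.0493, SE 0.31). Neither transcript passed in any fit that left out 1 library. In those fits 0 of all transcripts tested were called in either direction, except without non-BCSC replicate 1, where 26 of 59965 were called higher and 1 lower.

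The division of reads between isoforms was unsteady within groups. KIF11-205 counted 0, 3443 and 0 in BCSC, against 0, 1630 and 723 in non-BCSC, although the sum of KIF11 varied little. For AURKA, isoform AURKA-202 counted 889, 926 and 899 in BCSC, against 0, 0 and 9 in non-BCSC, where AURKA-201, AURKA-207 and AURKA-206 held 420, 364 and 367 counts in a different library each. AURKA-202 did not pass the adjusted p (edgeR adjusted p = 0.110). HMMR-202 counted 574, 614 and 1812 against 0, 0 and 0 and ECT2-216 counted 1990, 3710 and 1406 against 5, 8 and 29, both short of the threshold (edgeR adjusted p = 0.0559 and 0.0542). In all, 21 of the 310 transcripts with a count (6.77%) had 3 or fewer counts in each non-BCSC library and more in each BCSC library, where 2.64% of all 149362 transcripts with a count did, and 0 had the converse (1.35% of all). The BCSC libraries are deeper, which favors the first direction. With every library thinned to the total of the smallest, a step chosen after these counts were seen, it was 10 of 302 (1.77% of all transcripts) and 0 (2.06%).

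Near-identical copies of the members took few counts. The retrogene KIF4B held 3.22% of the count of KIF4A and the pseudogene AURKAP1 held 2.81% of that of AURKA, and the other copies looked at held less than 1% each. Exons overlapping a gene on the other strand were found for CCNA2, CDC25C, KIF20A and KIF4A, among others, and because the use of strand in counting is not given, reads there cannot be assigned to a gene with certainty. NUSAP1 shares 195 exon bases with OIP5-AS1 on its own strand.

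The wider mitotic pathway was described with a list of 111 other genes, in which 18 genes were called higher (8.85% of all genes) and 0 lower (11.3%). Without the fold minimum 45 were past the adjusted p and higher (15.3% of all genes) and 3 lower (14.6%), and the median log2 fold change was 0.36 (-0.05 over all genes). The 18 regulators of G2/M entry and of the MuvB and FOXM1 programme held 7 of the called genes. FOXM1, the transcription factor that drives many of the 45 genes, was 230 ± 49.0 CPM in BCSC and 73.5 ± 19.3 CPM in non-BCSC (SD, n = 3), a log2 fold change of 1.64 (edgeR adjusted p = 0.000923, SE 0.20). MYBL2, which encodes B-MYB, had a log2 fold change of 1.60 (edgeR adjusted p = 0.000857, SE 0.20), and GTSE1, a microtubule-binding protein of G2, one of 1.05 (edgeR adjusted p = 0.00481, SE 0.19). After the GC and length correction these were 0.92, 0.52 and 0.51 and past the adjusted p.

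Of the 24 other spindle, kinesin and cytokinesis genes 4 were called higher, where 8.85% of all genes tested were. KIF18B, a kinesin of microtubule ends, had a log2 fold change of 2.11 (edgeR adjusted p = 0.00142, SE 0.29), TROAP one of 2.10 (edgeR adjusted p = 0.00197, SE 0.31) and KIF22 one of 1.03 (edgeR adjusted p = 0.00506, SE 0.19). Of 33 further kinetochore and centromere genes 3 were called, near the share of all genes (8.85%). They were CENPO (1.50), CENPT (1.74) and MAD1L1 (2.52) by log2 fold change. With no fold minimum 14 of the 33 were past the adjusted p and higher (15.3% of all genes) and 0 lower (14.6%). Of 19 genes of condensin, cohesin and its guardians 2 were called, also near the 8.85% of all genes. They were CDCA5 (sororin, 2.09), which protects cohesion from WAPL, and NCAPH2 (1.32), a condensin II subunit. With no fold minimum 7 of the 19 were past the adjusted p and higher (15.3% of all genes) and 0 lower (14.6%). Of the 17 genes of the anaphase promoting complex, ANAPC2 (1.59) and FZR1 (1.12) were called higher, again near the 8.85% of all genes. With no fold minimum 5 of the 17 were past the adjusted p and higher (15.3% of all genes), among them ANAPC1 (0.58) and ANAPC5 (0.60). ANAPC1 and ANAPC5 stood at 0.70 and 0.65 after the correction for GC content and length, still past the adjusted p. ANAPC4 (-0.72), ANAPC16 (-0.49) and CDC27 (-0.46) were past the adjusted p and lower (14.6% of all genes), without reaching the fold minimum. These 3 stood at 0.10, 0.04 and 0.19 after the correction for GC content and length, above 0 and no longer past the adjusted p. After the correction for GC content and length, CDCA5 (1.42), KIF18B (1.003), TROAP (1.10) and CENPO (0.97) stayed past the adjusted p, and ANAPC2, FZR1, NCAPH2, CENPT, MAD1L1 and KIF22 did not.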

How the data were processed

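Total RNA of 3 BCSC and 3 non-BCSC libraries was primed at random for cDNA, with dUTP in the second strand, which was then digested. Per the study's methods, adapters were trimmed and reads were aligned with HISAT2 to hg19, while the labels list HISAT2, featureCounts and DESeq2 with hg38. The table holds no coordinates, so the conflict changes no value. The authors deposited whole-number estimated counts for each transcript, neither normalized nor filtered. How reads were assigned to transcripts and whether strand was used are not given in the sources used here. The authors' use of DESeq2 left no column in the table.

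Of 252618 transcripts, 249787 (98.9%) matched GENCODE v44 on GRCh37 by identifier, and the rest, with 0.273% of the counts, were left out. Counts were summed per gene and tested with the robust quasi-likelihood fit of edgeR 4.0.16 under R 4.3.3, after TMM normalization and filterByExpr, with group as the model, with Benjamini-Hochberg adjustment, two-sided. CPM uses TMM library sizes. A count of 0 allows up to 3 counts, or 0.148 to 0.288 CPM, for counting error only. The common coefficient of biological variation was 0.453 for genes and 1.02 for transcripts. GC and length effects were removed by loess offsets (span 0.3), and background was the olfactory receptor count per kb (391 genes) times transcript length. The test was tried on simulated counts with 200 changed genes. Pairs of libraries of a group differed beyond counting error (chi-square per gene 15.0 to 44.1), so each counted as 1 replicate. DESeq2 1.42.0, other normalizations and filters, thinning, a replicate block and each library left out were alternatives.

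The members, role groups and lists were chosen with earlier results of these data known. Values in every library were given for called members and for the 2 or 3 best counted members of each role group. In other lists at most 3 called genes per direction were named. ANAPC1, ANAPC5 and the 3 lower genes of the anaphase promoting complex were named after their values were seen.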

Additional observations from a re-analysis of the deposited data

How the results depend on the processing

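The 45 mitotic genes gave 10 calls higher and 0 lower as reported. Calls higher were 7 with RLE size factors, total counts, DESeq2 or thinned counts, 10 without a filter, 5 with at least 10 counts in every library, 5 with background removed, 4 with protein-coding transcripts only, 9 with the GC and length correction and 17 with no minimum fold. Among all genes, calls higher were 1533 with RLE, 1585 with total counts and 1783 with DESeq2, of 20442. They were 1738 of 18491 with thinned counts and 2181 of 49795 without a filter. With at least 10 counts they were 1383 of 13216, and with protein-coding transcripts only 909 of 13223. The shares were 10.9% with background removed, 7.35% with the GC and length correction and 15.3% with no minimum fold. Calls lower were 1 (PRC1) with RLE, DESeq2, at least 10 counts, background removed or protein-coding transcripts only, and 4 with no minimum fold. Among all genes, calls lower were 2515 with RLE and 3512 with DESeq2, of 20442. They were 1177 of 13216 with at least 10 counts and 735 of 13223 with protein-coding transcripts only. The shares were 5.4% with background removed and 14.6% with no minimum fold. Genes past the adjusted p and higher, 17 as reported, were 28 with the GC and length correction, 8 with background removed and 7 with protein-coding transcripts, and those lower, 4 as reported, were 1, 11 and 3. Of all genes, 19.5%, 14.9% and 1378 of 13223 were past it and higher in these 3 fits. Those past it and lower were 11.6%, 12.9% and 1242 of 13223. The median log2 fold change, 0.20 as reported, was 0.11 with RLE, 0.13 with total counts, 0.11 with DESeq2, 0.27 without a filter, 0.049 with at least 10 counts, 0.58 with the GC and length correction, 0.094 with protein-coding transcripts and -0.10 with background removed, where it reversed. Leaving out 1 library gave 5 to 10 calls higher (5 without BCSC replicate 1), 0 to 1 lower (1 without non-BCSC replicate 3), 11 to 17 past the adjusted p and higher, 1 to 4 lower and a median of 0.17 to 0.29. Among all genes, calls higher then ran from 959 of 23650 to 2230 of 23992, and calls lower from 1103 of 22473 to 3004 of 23542. Past the adjusted p, 1784 to 3338 of all genes were higher and 1391 to 3566 lower. Of transcripts, 1 higher and 1 lower as reported, DESeq2 and an unadjusted p each gave 17 and 3, no filter gave 3 and 1, RLE gave 1 and 0, and leaving out 1 library gave 0 to 0 in either direction, with 15 to 26 at an unadjusted p and higher and 1 to 4 lower. Among all 46176 transcripts, DESeq2 gave 3443 higher and 3904 lower, an unadjusted p 3622 and 3689, and RLE 243 and 90. No filter gave 404 and 88 of 149359. With 1 library left out, 3154 to 5816 of all transcripts were higher at an unadjusted p and 3199 to 4676 lower. Of all transcripts, 0 were called in the fits that left out 1 library, except without non-BCSC replicate 1 (26 higher and 1 lower of 59965). The causes were not tested. RLE and total counts moved the median of all genes by -0.09 and -0.08.

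Whether the replicate numbers pair the libraries is not given and could not be settled from the counts. The deviations of same-numbered libraries correlated at 0.18, 0.01 and 0.22. Each non-BCSC library correlated best with its own number, as did BCSC replicates 1 and 3, while BCSC replicate 2 correlated best with non-BCSC replicate 1 (0.05). With the replicate block the 45 genes gave 10 calls higher (1994 of all 20442 genes) and 0 lower (2321). Of the 45, 18 were past the adjusted p and higher (3788 of all genes) and 5 lower (3196). With this block 0 transcripts of the 45 genes were called higher and 0 lower. At an unadjusted p 13 were higher (2492 of all transcripts) and 1 lower (2223). Of all 46176 transcripts tested with this block, 0 were called in either direction. With the replicate block and the GC and length correction together 8 of the 45 genes were called higher (1550 of all 20442 genes). In that fit 31 were past the adjusted p and higher (4458 of all genes) and 1 lower (2216). The median was 0.58 over the 45 genes and 0.12 over all genes.

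Under the GC and length correction 16 genes changed sign, and for 9 of them the value was past the adjusted p before or after, given here with the value under the block and the correction together beside it: CCNB1 0.65 and 0.67, CCNB2 0.49 and 0.49, MAD2L1 0.58 and 0.58, TTK 0.61 and 0.62, KIF14 0.58 and 0.60, KIF23 0.22 and 0.22, NUSAP1 0.27 and 0.28, HMMR 0.48 and 0.49, and DLGAP5 0.73 and 0.73. The other 7 (CENPF, KIF15, MKI67, PTTG1, SPAG5, TOP2A and TPX2) were past it in neither fit. Of these, CENPF (0.40) and TOP2A (0.41), already turned by the correction alone, passed it with the block and the correction together. AURKB, CDCA8, ESPL1, INCENP and KIFC1 were called under RLE, total counts, DESeq2, either filter, thinning and background removal. The ratio of the members' summed level was 1.05 on the TMM scale and 1.01 as a share of all counts. With n = 3 libraries of unequal depth, whose depth, GC slope and low-level signal all move with the group, these cannot be told apart from the sort.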

Other observations

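The genes of G1/S and DNA replication, a list of 42, were looked at beside the mitotic genes because both follow the cell cycle. In BCSC 13 of them were called higher (8.85% of all genes) and 0 lower (11.3%). Without the fold minimum 29 were past the adjusted p and higher (15.3%) and 2 lower (14.6%), with a median log2 fold change of 0.68 (-0.05 over all genes). CDK2, the kinase of S phase entry, was 99.3 ± 7.19 CPM in BCSC and 32.0 ± 4.20 CPM in non-BCSC (SD, n = 3), a log2 fold change of 1.63 (edgeR adjusted p = 0.000230, SE 0.15). CDK6, a cyclin D kinase, had a log2 fold change of 1.34 (edgeR adjusted p = 0.000322, SE 0.13), and RFC5, a subunit of the clamp loader, one of 1.25 (edgeR adjusted p = 0.00114, SE 0.16). After the correction for GC content and length 13 were again called higher (7.35% of all genes), and the median was 0.74 (0.06 over all genes). After background removal 10 were called higher (10.9% of all genes), and the median was 0.46 (0.13 over all genes). The difference between this list and the mitotic genes was not tested.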
